A study of Mus musculus with 35 samples.

Results

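The 16 control kidneys of this mouse series, out of 35 libraries in all, were described by what their genes were doing at postnatal day 2, with no knockout comparison. They are all the libraries that the submitters call controls, and came from C57BL/6 mice. There were 5 controls of the Flcn knockout cross, 3 controls of the Flcn/Tfeb double knockout cross and 8 controls of the Flcn/Tfe3 double knockout cross. The first and second kinds were deposited together (set A), Flcn/Tfe3 controls 1 to 3 came in a table of their own (set B), and Flcn/Tfe3 controls 4 to 8 came in another (set C), which gave 4 groups. In its legends the study names its controls as Flcn flox/flox. Whether controls of the double knockout crosses also carried floxed Tfeb alleles or null Tfe3 alleles is not given in the sources used here. The crosses use Ksp-cre, a Cre recombinase under the promoter of Cdh16 that is active in the collecting duct, the distal tubule and the thick ascending limb, and a Tfe3 allele that is null in every cell. The labels call the libraries biological replicates, and p-values measure the spread between them.

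A newborn mouse kidney is still making nephrons. Progenitors of the cap mesenchyme, known for Six2 and Cited1, lie around the tips of the branching ureteric bud, which carry the receptor Ret. Under Wnt signals they turn into vesicles that express Wnt4, Lhx1 and Jag1, and these lengthen into the podocytes of the glomerulus, the proximal tubule, the loop of Henle and the distal convoluted tubule, while the bud becomes the collecting duct. The progenitor pool is used up within the first days of life, so a kidney of this age holds progenitors, nephrons under construction and working tubules side by side.

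Libraries held 1719367 to 3873439 counts on genes (median 2737950), of which 3 counts, taken here as the limit of detection, equal 0.774 to 1.75 CPM (counts scaled to the library total). Each count is a 3′ end of a transcript, so CPM was not divided by gene length, and levels of different genes were compared as transcript ends. A count was found for 15352 to 16284 genes in a library and for 12931 genes in all 16. The mean over the 4 groups reached 1 CPM for 14301 genes, which include 62.4% of the 21974 protein-coding genes, and 100 CPM for 1791 genes that together held 68.7% of the counts. Within groups, pairs of libraries gave Spearman coefficients of 0.740 to 0.963 across genes, and every pair differed by more than sampling noise (chi-square per degree of freedom of at least 3.55), so that no library was a copy of another.

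Within their groups, 4 libraries stood apart from the rest. An axis fitted to the deviations of log2 CPM from the group means took up 44.8% of that variance, against 12.7% for the next, and placed Flcn controls 4 and 5 at -17.4 and -20.1, Flcn/Tfeb control 3 at -42.9 and Flcn/Tfe3 control 6 at -28.8. The other 12 libraries lay between -5.77 and 22.2. The same 4 had the smallest shares of mitochondrially encoded counts in their groups, at 4.88%, 4.93%, 4.47% and 3.01%, where the others of those groups had 4.08% to 11.1%. Their shares of reads aligned to more than 1 place were the smallest as well, at 36.7%, 37.8%, 41.2% and 35.0%, against 40.04% to 49.4%. For set B no such tally per library was at hand. For 2298 of the 7348 genes with a mean of at least 20 CPM (31.3%), these 4 libraries were above all others of their groups, and for 544 genes (7.4%) below. The axis that set the 4 apart was fitted to these same genes, so the counts follow in part from that choice. The same holds below where list genes or sums are highest or lowest in these libraries. Sums over lists of kidney and blood cell genes are therefore given with and without them, and the part of mitochondrial share or read alignment in their values was not tested.

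**Figure D1:**
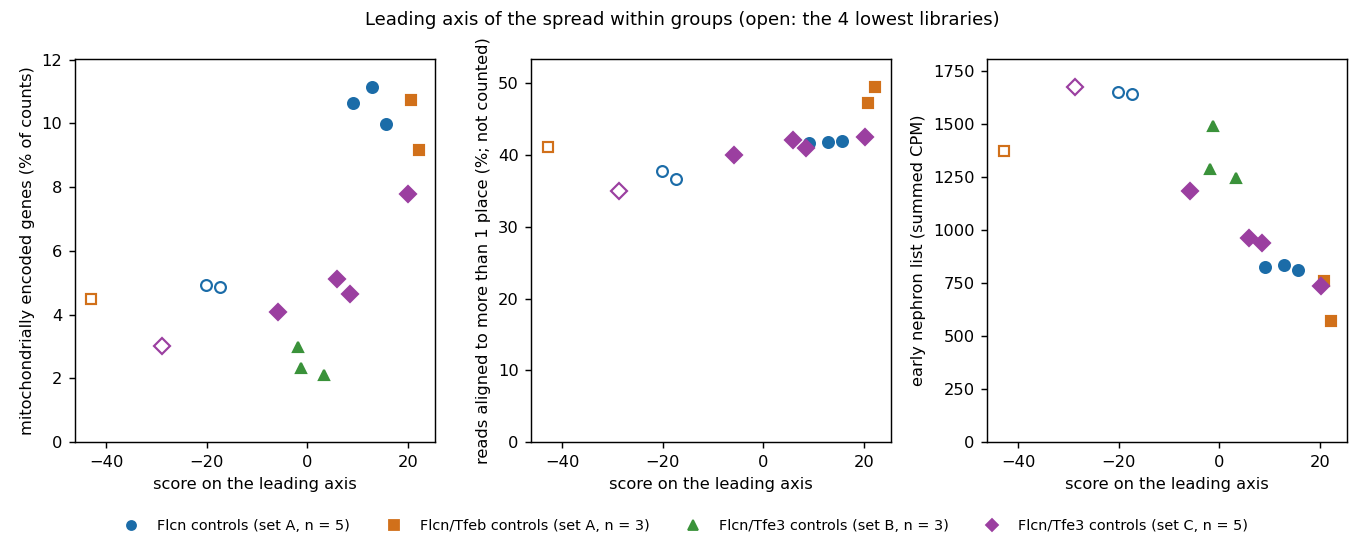
Share of mitochondrially encoded counts (%), share of reads aligned to more than 1 place (%, 13 libraries) and summed CPM of the early nephron list against the score on the leading axis of the spread within groups, 1 point a library, coloured by control group. The 4 open points lie lowest on the axis, have the smallest shares of their groups in the left and middle panels and the highest early nephron sums of their groups, and the early nephron genes are among those the axis was fitted on.

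The most abundant gene was Gm42418, a long non-coding RNA gene on chromosome 17 (39846958 to 39848788, GRCm38) at a locus known to carry ribosomal RNA sequence. Its mean over the groups was 83721 CPM. In Flcn/Tfe3 controls 4 to 8 it stood at 144000, 142979, 130831, 136632 and 154748 CPM, and in the other 11 libraries between 34833 and 86858 CPM. Set C did not overlap with any other group. Of the 20 highest genes, 4 were mitochondrially encoded: mt-Nd4 (23890 CPM), mt-Nd2 (13792 CPM), mt-Nd1 (10107 CPM) and mt-Cytb (8399 CPM), subunits of respiratory complexes. Other genes of the same mitochondrial transcripts were near 0. mt-Nd4l had no count, mt-Atp8 had a mean of 0.977 CPM and mt-Co2 one of 8.56 CPM. Reads that aligned to more than 1 place had been left uncounted by the authors, so a level of a mitochondrial gene, a ribosomal protein gene or another gene with near-identical copies is uncertain.

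Ribosomal protein genes (Rps and Rpl, stalk proteins such as Rplp1 not counted) took 43 of the 100 highest places and 9.44% of the counts, mitochondrial genes 6 places and 5.96%, and globin genes 2 places and 0.467%. Rps14 led the ribosomal proteins with 5937 CPM, followed by Rps12 (5249 CPM), Rps24 (3929 CPM), Rps26 (3798 CPM), Rps20 (3177 CPM) and Rps21 (2536 CPM). The nuclear non-coding RNA Malat1 had a mean of 5226 CPM and ranged from 850.6 CPM in Flcn/Tfe3 control 2 to 12569 CPM in Flcn/Tfeb control 2. Among the other coding genes of the top 20 were Actb, cytoplasmic actin (5681 CPM), Rplp1, a protein of the ribosomal stalk (3915 CPM), Hsp90ab1, a chaperone (3752 CPM), and Chchd2, a mitochondrial protein encoded in the nucleus (2955 CPM). Genes the kidney is known for were among the 20 as well. Gpx3, the secreted glutathione peroxidase made by the proximal tubule, had 2777 CPM (1466 to 4350). S100g, the calcium-binding protein calbindin-D9k, had 2475 CPM (1285 to 3745). Both were detected in every library.

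**Figure D2:**
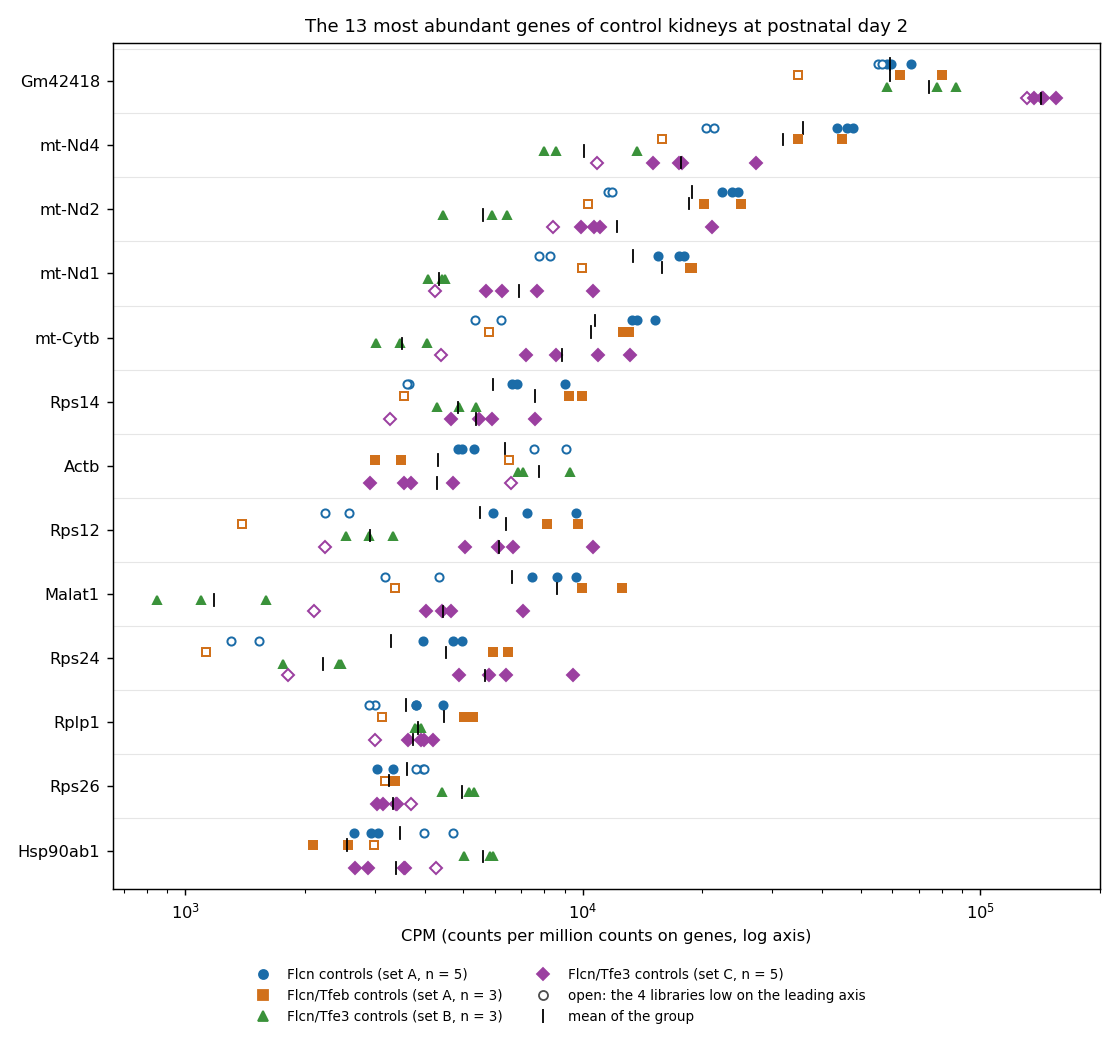
CPM (log axis) of the 13 most abundant genes in each of the 16 control libraries, 1 point a library, with the mean of each control group as a black tick. Gm42418 is highest in every library, and its 5 values in set C, from 130831 to 154748 CPM, lie apart from the others.

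Nephron progenitor genes were present but low. The 12 genes listed summed to 310.5 CPM as the mean of the groups (296.8 CPM without the 4 libraries), and 11 of them had counts in all 16 libraries. Sums per group were 288 ± 27.4 CPM in Flcn controls (SD, n = 5), 292 ± 40.03 CPM in Flcn/Tfeb controls (n = 3), 370 ± 33.3 CPM in set B (n = 3) and 291 ± 33.9 CPM in set C (n = 5). Most of the sum came from genes that other cells of the kidney also use, Hoxd11 (108 CPM), Sall1 (41.9 CPM) and Itga8 (37.6 CPM), which held 60.5% of it. In these bulk samples fewer cells of a type and less RNA per cell cannot be told apart.

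Six2, the transcription factor that keeps progenitors undifferentiated, lies on chromosome 17 (85684277 to 85688274, minus strand, GRCm38). Its levels were 3.17, 4.40, 4.22, 11.2 and 7.44 CPM in Flcn controls 1 to 5 and 1.09, 1.06 and 20.4 CPM in Flcn/Tfeb controls 1 to 3. They were 47.8, 33.7 and 18.4 CPM in Flcn/Tfe3 controls 1 to 3 and 8.85, 6.40, 23.0, 13.5 and 5.84 CPM in controls 4 to 8. Set B was highest, though Flcn/Tfeb control 3 and Flcn/Tfe3 control 6, both among the 4 libraries set apart, exceeded its lowest value. Cited1, a co-regulator found in the uncommitted part of the cap (chromosome X, 102247381 to 102252181), was also highest in set B. It stood at 5.44, 2.64, 3.69, 12.1 and 7.44 CPM in Flcn controls and 8.19, 1.59 and 7.02 CPM in Flcn/Tfeb controls. Set B had 47.8, 48.4 and 24.6 CPM and set C 16.9, 8.72, 18.99, 6.58 and 11 CPM. All 3 libraries of set B were above the other 13.

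Differences among the 4 groups were tested for every gene with edgeR's quasi-likelihood F test, with Benjamini-Hochberg adjustment over 13018 genes. An adjusted p under 0.05 counted as a call, and 11.2% of all tested genes had one. Of 11 tested progenitor genes 5 were called: Cited1 (adjusted p = 0.00149), Itga8 (0.00865), Meox1 (0.0195), Six2 (0.0265) and Hoxd11 (0.047). Cited1 was called whichever library was left out, with adjusted p from 0.000574 to 0.00914. The call of Six2 was lost without Flcn/Tfe3 control 1 or control 2, with adjusted p from 0.000355 to 0.13 over the 16 fits, and with the mitochondrial share as a covariate (0.444). Itga8, an integrin of the cap mesenchyme, ran the other way, with 47.3, 31.4, 65.4, 54.8 and 51.9 CPM in set C against 28.9, 43.0 and 39.9 CPM in set B. Their ranges overlapped. Gdnf, the ligand that the cap sends to the ureteric tip, had a mean of 11.8 CPM (4.65 to 24.3) and Eya1, a partner of Six2, one of 15.8 CPM (9.62 to 21.6), and neither was called. Without the 4 libraries 7 of the 11 were called (37.7% of all genes in that fit).

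Ccnd1, a cyclin of the first gap phase, had a mean of 538 CPM, Lhx1, a transcription factor of the renal vesicle, 175 CPM, Jag1, a Notch ligand, 104 CPM, and Wnt4, the signal that turns mesenchyme into epithelium, 100.1 CPM. The 10 listed genes summed to 1124 CPM, of which Ccnd1, a cell cycle gene, gave 538 CPM. The sum ran from 572.4 CPM in Flcn/Tfeb control 1 to 1673 CPM in Flcn/Tfe3 control 6. The 4 libraries set apart were the highest of their groups, and the mean without them was 946.4 CPM. Lhx1 showed the same split, with 288 and 352 CPM in Flcn controls 4 and 5 against 113 to 116 CPM in the other 3 controls of that group. Only Jag1 was called among the groups (adjusted p = 0.0106), 1 of 10 tested, where 11.2% of all tested genes were. Without the 4 libraries 7 of 10 were called, in a fit that called 37.7% of all genes. Fgf8, a growth factor of the vesicle, had a mean of 2.97 CPM and stood at 0.440 to 0.731 CPM in 4 libraries.

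Ureteric tip genes summed to 285 CPM (234 CPM without the 4 libraries), from 140 CPM to 439 CPM, again with the 4 libraries highest of their groups. Emx2 (97.0 CPM) and Sox9 (58.2 CPM), transcription factors, led the list, with Etv5 (37.5 CPM), an effector of Ret signalling. Ret itself, the receptor for Gdnf, had a mean of 8.58 CPM and ranged from 1.75 CPM in Flcn/Tfe3 control 5 to 18.3 CPM in Flcn/Tfe3 control 1. Wnt11, a ligand made at the tip, had 7.99 CPM (3.09 to 14.4). Of 9 tested genes 1 was called (11.2% of all tested genes were), Etv4 (adjusted p = 0.0304). Its call held in 9 of the 16 fits with a library left out. Without the 4 libraries 6 of 9 were called (37.7% of all genes in that fit).

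Promoter sequence is shown for genes from both ends of this development, since the lists differed in a feature that did not enter their choice. Six2 and Lhx1 are a progenitor and a vesicle gene, Umod and Kap genes of the mature tubule, and all 4 lie outside the lower to upper quartile of CpG number in their own lists, so they show the ends of the range and not a typical member. Each run is 300 bases, 250 before and 50 after the start of the gene, 5′ to 3′ on the gene's strand, from RefSeq on GRCm38.p6, with CpG dinucleotides in capitals: Six2 at chr17:85688205-85688504 (minus strand), Lhx1 at chr11:84525485-84525784 (minus), Umod at chr7:119479213-119479512 (minus) and Kap at chr6:133853618-133853917 (minus).
Six2: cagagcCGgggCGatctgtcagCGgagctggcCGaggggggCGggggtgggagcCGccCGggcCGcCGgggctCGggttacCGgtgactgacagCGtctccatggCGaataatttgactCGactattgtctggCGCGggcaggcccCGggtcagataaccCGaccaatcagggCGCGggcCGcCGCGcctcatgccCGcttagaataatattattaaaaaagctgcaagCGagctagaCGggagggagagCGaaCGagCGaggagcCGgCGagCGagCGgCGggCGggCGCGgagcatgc
Lhx1: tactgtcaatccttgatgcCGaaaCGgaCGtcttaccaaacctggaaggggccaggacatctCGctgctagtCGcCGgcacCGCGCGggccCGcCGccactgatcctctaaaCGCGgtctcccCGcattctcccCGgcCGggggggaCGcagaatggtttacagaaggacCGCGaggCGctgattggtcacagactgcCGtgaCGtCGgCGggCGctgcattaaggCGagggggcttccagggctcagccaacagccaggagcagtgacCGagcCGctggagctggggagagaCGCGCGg
Umod: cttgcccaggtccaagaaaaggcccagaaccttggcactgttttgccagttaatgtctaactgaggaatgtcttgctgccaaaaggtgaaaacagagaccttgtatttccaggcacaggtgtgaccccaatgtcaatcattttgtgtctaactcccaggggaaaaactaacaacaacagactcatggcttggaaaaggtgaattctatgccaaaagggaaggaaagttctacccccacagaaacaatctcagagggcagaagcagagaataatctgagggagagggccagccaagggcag
Kap: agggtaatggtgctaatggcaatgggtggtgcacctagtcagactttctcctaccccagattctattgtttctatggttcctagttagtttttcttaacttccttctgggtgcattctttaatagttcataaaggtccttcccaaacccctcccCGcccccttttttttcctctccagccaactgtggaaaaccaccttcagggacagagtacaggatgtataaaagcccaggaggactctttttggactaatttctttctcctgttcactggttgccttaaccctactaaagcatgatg
The window of Six2 holds 37 CpG and that of Lhx1 31, while Umod has 0 and Kap 1. The median over 27025 promoters was 7, and over the genes with a mean of at least 20 CPM it was 22. Progenitor genes had a median of 20.5 (6 genes with a promoter in the table), early nephron genes 22 (7 genes) and cell cycle genes 24.5 (14 genes). Proximal tubule genes had 5.5 (17 genes) and thick ascending limb genes 5 (8 genes). The motif TATAAA, searched on the gene's strand in the 50 bases before the start, was found in Kap 31 bases before it, in 2 of the 6 progenitor promoters (Cited1 and Gdnf), in 3 of the 17 proximal tubule promoters and in 3.15% of all promoters. These are counts of letters in a window and were not tested.

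Proximal tubule genes summed to 6710 CPM over 20 genes (6755 CPM without the 4 libraries), from 5626 to 8714 CPM. A sum depends on how many genes a list holds, so sums of different lists are not ranked. All 20 genes had a mean of at least 20 CPM. Among the highest were Kap, an androgen-regulated secreted protein (1067 CPM, 659 to 1807) and Slc34a1, the sodium-phosphate cotransporter (727 CPM, 492 to 1099). The endocytic receptor gene Lrp2 (megalin) had 529 CPM, while its partner Cubn had 28.0 CPM. Hnf4a, the transcription factor of the lineage, had 68.0 CPM and ranged from 22.2 CPM in Flcn/Tfeb control 2 to 127 CPM in Flcn/Tfeb control 3.

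Of 20 tested proximal tubule genes 8 were called among the 4 groups, where 11.2% of all tested genes were. Without the 4 libraries 14 were called (37.7% of all genes in that fit). The called genes did not share a direction. Slc5a2, the glucose transporter SGLT2, had 88.8, 91.5, 90.7, 65.1 and 52.1 CPM in Flcn controls and 83.5, 55.0 and 64.2 CPM in Flcn/Tfeb controls. It had 25.04, 20.7 and 33.6 CPM in set B and 21.2, 44.8, 30.3, 36.5 and 46.4 CPM in set C, so that every library of set A was above all of sets B and C (adjusted p = 0.00588). This call was lost with the mitochondrial share as a covariate (adjusted p = 0.11). Miox, which breaks down inositol, had 614 to 860 CPM in set A, 488 to 821 CPM in set B and 267 to 462 CPM in set C (adjusted p = 0.01). Pck1, an enzyme of glucose synthesis, went the opposite way, from 132 to 189 CPM in 7 of the 8 libraries of set A to 207 to 384 CPM in sets B and C (adjusted p = 0.00478). The exception was Flcn/Tfeb control 3, with 326 CPM. All 3 genes were called in each of the 16 fits that left out a library.

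Genes of the thick ascending limb summed to 1277 CPM (1268 CPM without the 4 libraries), with a coefficient of variation of 9.07% within groups (10.8% on TMM-scaled CPM). Slc12a1, the sodium-potassium-chloride cotransporter, had 662 CPM (470 to 878) and Cldn10, a claudin of the limb, 158 CPM. Umod, whose product uromodulin is the most abundant protein of adult urine, had 217 CPM, from 118 CPM in Flcn/Tfe3 control 5 to 411 CPM in Flcn/Tfeb control 3. Egf, a growth factor that the adult limb and distal tubule make in large amounts, had a mean of 3.80 CPM (0.385 to 7.09), and was below the level of 3 counts in Flcn/Tfe3 control 4. Of 10 tested genes 2 were called (11.2% of all tested genes were), Kcnj1 and Cldn19. Their calls held in 13 and 7 of the 16 fits that left out a library. Without the 4 libraries 7 of 10 were called (37.7% of all genes in that fit).

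Thin limb genes summed to 335.6 CPM (310.9 CPM without the 4 libraries), of which Aqp1, a water channel also made by the proximal tubule, gave 256 CPM (140 to 342). Slc14a2, the urea transporter of the thin limb and inner medulla, had 3.45 CPM (0.385 to 6.86), and none of 7 tested genes was called, while 3 of 6 were without the 4 libraries (37.7% of all genes in that fit).

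Of all genes in the nephron and collecting duct lists, the distal convoluted tubule gene Slc12a3 had the smallest adjusted p among the control groups. Slc12a3, the thiazide-sensitive sodium-chloride cotransporter (chromosome 8, 94329201 to 94366214), had 133, 139, 131, 101 and 92.5 CPM in Flcn controls and 177, 174 and 136 CPM in Flcn/Tfeb controls. It had 60.4, 46.1 and 70.7 CPM in Flcn/Tfe3 controls 1 to 3 and 35.0, 61.1, 54.4, 52.2 and 42.6 CPM in controls 4 to 8. The lowest of the 8 libraries of set A was above the highest of the 8 of sets B and C (adjusted p = 0.000826), and adjusted p stayed between 7.88e-05 and 0.00375 over the 16 fits that left out a library. The cross and the deposited set differ together here and cannot be told apart. Pvalb, a calcium buffer of the early distal convoluted tubule, behaved in another way, as it was either on or nearly off. It had 39.9, 23.7 and 23.0 CPM in Flcn controls 1, 3 and 5 and 25.6 and 44.5 CPM in Flcn/Tfeb controls 1 and 3, while the remaining 11 libraries had 0 to 3.11 CPM (adjusted p = 0.0126). Skeletal muscle also makes Pvalb. The muscle list, given further on, was high in Flcn control 1 and Flcn/Tfeb control 1 of these 5 libraries and also in Flcn/Tfe3 control 2, where Pvalb had 3.11 CPM, and its part in the result was not tested. Calb1 (162 CPM), the gene of calbindin-D28k, and Klk1 (53.5 CPM), a kallikrein of the connecting tubule, were not called. The list summed to 376 CPM (346 CPM without the 4 libraries). Of 9 tested genes 3 were called (11.2% of all tested genes were). Without the 4 libraries 5 of 9 were called (37.7% of all genes in that fit).

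Collecting duct genes showed both cell types. For principal cells Aqp2, the vasopressin-regulated water channel, had 369 CPM (183 to 572), Hsd11b2, which shields the mineralocorticoid receptor from cortisol-like hormones, 58.2 CPM, and Fxyd4, a regulator of the sodium pump, 54.9 CPM. The sum was 648 CPM (594 CPM without the 4 libraries). Set B had 845 ± 19.5 CPM (SD, n = 3), above every other library but Flcn/Tfeb control 3 with 972.9 CPM. None of the 10 tested genes passed the quasi-likelihood test, and 3 did without the 4 libraries, where 37.7% of all genes did. For intercalated cells, which move acid and base, the sum was 402.5 CPM (393.1 CPM without the 4 libraries) and kept within 358.9 to 497 CPM over the 16 libraries. Atp6v1g3 (126 CPM), a subunit of the proton pump, Car2 (109 CPM), a carbonic anhydrase, and Rhcg (53.6 CPM), an ammonia channel, led it. Foxi1, the transcription factor of these cells, had 12.2 CPM (1.75 to 32.4) and Slc26a4 (pendrin), of the base-secreting type, 7.33 CPM. No intercalated gene of 10 tested was called, and 6 were without the 4 libraries (37.7% of all genes in that fit).

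Water channels and claudins can be read across segments. Of 10 aquaporin genes 7 had counts in all 16 libraries, and after Aqp2 and Aqp1 the order of levels was Aqp11 (39.1 CPM), Aqp3 (31.2 CPM), Aqp4 (27.8 CPM), Aqp6 (17.6 CPM) and Aqp7 (6.27 CPM). Aqp5, Aqp8 and Aqp9 had means under 1 CPM. Among 18 claudin genes Cldn2, of the proximal tubule (180 CPM, 114 to 285), and Cldn10 (158 CPM) were highest. Cldn6, which is known from embryonic epithelia, still had 65.7 CPM, and Cldn18 had no count.

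**Figure D3:**
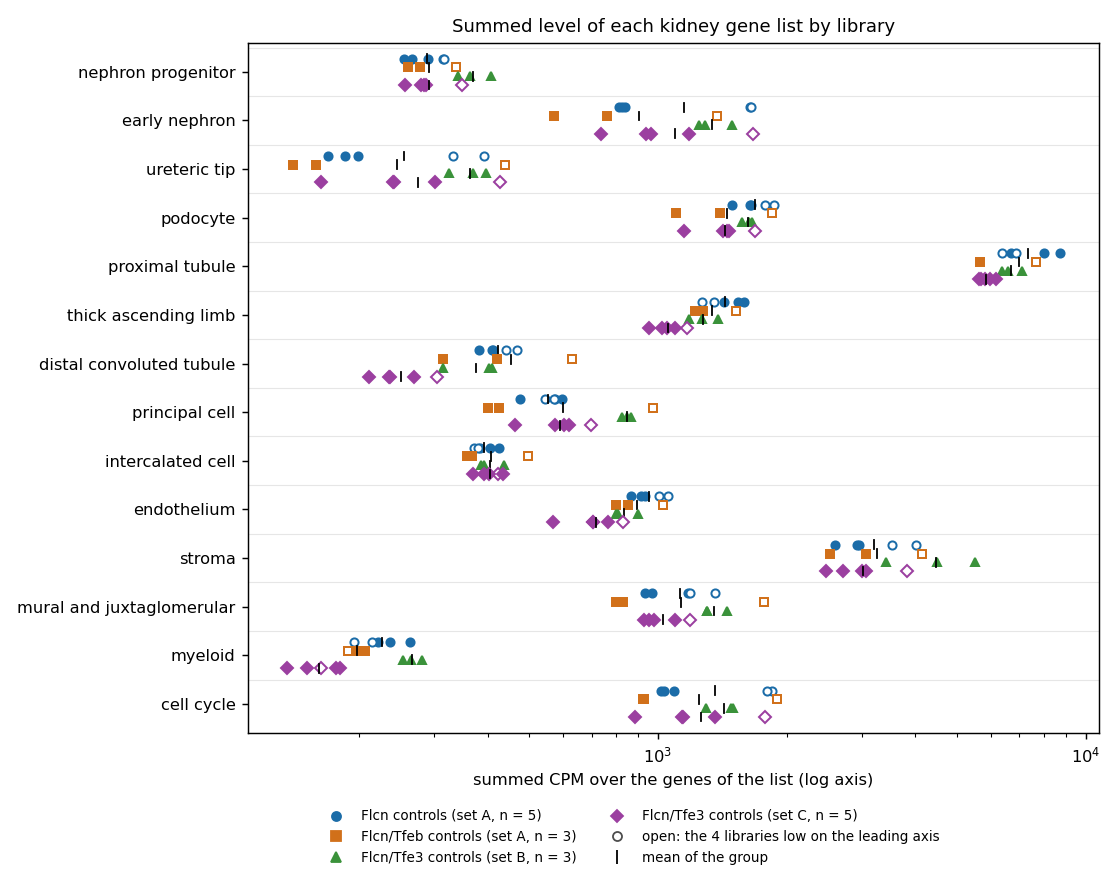
Summed CPM (log axis) of 14 lists of kidney genes in each control library, 1 point a library, with the mean of each control group as a black tick. The open points, the 4 libraries set apart, are the highest of their groups for early nephron, ureteric tip and cell cycle genes, also on TMM-scaled CPM, and for nephron progenitor, podocyte, distal convoluted tubule, endothelium, stroma and mural genes on this scale but not on TMM-scaled CPM, and the intercalated cell sums keep within 358.9 to 497 CPM.

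Podocyte genes summed to 1548 CPM (1460 CPM without the 4 libraries), and 929 CPM of it was Cdkn1c, a cell cycle inhibitor that other cells also make. Podxl, the sialoprotein of the podocyte surface, had 144 CPM, and Wt1, a transcription factor that podocytes keep, 79.6 CPM. The slit diaphragm gene Nphs1 (nephrin) was lower, with 13.2 CPM (5.77 to 22.7). Synpo, an actin-binding protein of the foot process, had 73.1 to 102 CPM in set A, 36.0 to 73.8 CPM in set B and 23.9 to 43.5 CPM in set C (adjusted p = 0.00539). It was called in each fit that left out a library, and set A overlapped with 1 library of set B only. In all, 3 of 12 tested podocyte genes were called (11.2% of all tested genes were). Without the 4 libraries 5 of 12 were called (37.7% of all genes in that fit).

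Endothelial genes summed to 849 CPM (812 CPM without the 4 libraries). Egfl7 (173 CPM), a secreted protein of endothelium, and Kdr (118 CPM), the main receptor for VEGF, were highest, followed by Ehd3 (95.5 CPM), a gene of glomerular endothelium. 1 of 10 tested genes was called (11.2% of all tested genes were), Kdr (adjusted p = 0.0449). Its call held in 3 of the 16 fits with a library left out. Without the 4 libraries 6 of 10 were called, where 37.7% of all genes were.

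Stromal genes summed to 3486 CPM (3228 CPM without the 4 libraries), and 83.1% of that was fibrillar collagen from Col1a2 (1286 CPM), Col3a1 (833 CPM) and Col1a1 (776 CPM). Foxd1, the factor of stromal progenitors, had 10.6 CPM (4.91 to 17.04). Meis1, a factor of the medullary and cortical stroma, ranged from 51.1 to 176 CPM in set A, from 35.0 to 37.2 CPM in set B and from 44.2 to 75.03 CPM in set C (adjusted p = 0.0131). Set B was below all others. Pdgfra, a receptor of fibroblasts, had 50.6, 45.3 and 53.7 CPM in set B, 61.9 to 82.2 CPM in set C and 51.3 to 77.2 CPM in set A (adjusted p = 0.0117 among the 4 groups). Sets B and C did not overlap. The contrast of set C with set B, which lies within the Flcn/Tfe3 cross, gave a log2 difference of 0.72 (SE 0.131, adjusted p = 0.00819), and 4.22% of all genes were called in it. Of the 24 list genes called in this contrast, mitochondrial and ribosomal genes aside, Pdgfra was the 1 called in every fit with a library left out. Its call in this contrast was lost with the replicate number as a block. Sets B and C share no number, so that fit cannot tell whether the call holds.

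Mural and juxtaglomerular genes summed to 1160 CPM (1046 CPM without the 4 libraries). Acta2, the actin of smooth muscle, had 413 CPM and Rgs5, of pericytes, 260 CPM. Ren1, whose product renin starts the angiotensin cascade, was nearly as high, with 257 CPM. It stood at 198, 220, 323, 295 and 283 CPM in Flcn controls and 169, 177 and 468 CPM in Flcn/Tfeb controls, and at 327, 285 and 419 CPM in set B against 151, 113, 192, 138 and 150 CPM in set C. Set C was below set B without overlap (adjusted p = 0.0232 in that contrast), a call lost in 4 of the 16 fits that left out a library.

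Macrophage genes summed to 213 CPM (218 CPM without the 4 libraries), led by Csf1r (42.3 CPM), the receptor that these cells need to live, Cx3cr1 (29.4 CPM) and Lyz2 (29.3 CPM). Set B had 267 ± 13.4 CPM (SD, n = 3) and set C 162 ± 18.6 CPM (n = 5), and their ranges did not overlap. In the contrast of set C with set B 3 of 11 tested genes were lower, Csf1r, C1qa and C1qb. This contrast called 4.22% of all tested genes. The calls of these 3 genes held in 4, 4 and 7 of the 16 fits with a library left out. Without the 4 libraries set apart 4 of 11 were called in this contrast (19.4% of all genes in that fit).

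Blood was present in every kidney. Red cell genes summed to 4710 CPM (4981 CPM without the 4 libraries) and ranged from 2157 CPM in Flcn/Tfe3 control 6 to 8438 CPM in Flcn control 2. Hbb-bs had 2366 CPM, Hba-a1 993 CPM, Hbb-bt 675 CPM and Hba-a2 634 CPM, and since the adult globin genes are near-identical pairs, how their counts divide is uncertain. The embryonic globins Hbb-y and Hbb-bh1 had no count in any library, and Hba-x had counts in 1 library only, at 0.77 CPM. Alas2, the heme enzyme of red cell precursors, had 24.6 CPM (8.59 to 49.3). Neutrophil genes, S100a8 (42.0 CPM) and S100a9 (41.0 CPM) above all, summed to 97.0 CPM (112.1 CPM without the 4 libraries) and went from 16.8 CPM in Flcn/Tfe3 control 6 to 305 CPM in Flcn/Tfe3 control 1.

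Several genes of the neighbouring adrenal gland were high in some libraries and low or absent in others. Cyp21a1, the 21-hydroxylase of the adrenal cortex, had 83.6 CPM in Flcn/Tfeb control 2 and 86.0, 68.9 and 57.7 CPM in Flcn/Tfe3 controls 1, 2 and 6. The other 12 libraries had 0 to 0.546 CPM, less than 3 counts. Cyp11b1, the last enzyme of corticosterone synthesis, was at 11.6, 47.8, 38.8 and 33.6 CPM in the same 4 libraries and at 0 counts in the other 12. Chgb, a granule protein of the chromaffin cells of the adrenal medulla, had 25.4, 74.1, 31.1 and 56.2 CPM there and 0 to 7.56 CPM elsewhere. Over the whole lists, the adrenal sum was 198.5, 348, 299.8 and 271 CPM in these libraries and 29.6 to 75.3 CPM in the others, and the chromaffin sum was 65.6, 201, 112 and 138 CPM against 0.385 to 14.5 CPM. Of the 10 adrenal genes Cyp11b2 had no count, and Scarb1 (26.3 CPM) and Akr1b7 (17.4 CPM), which the kidney also makes, were present in all 16 libraries. No adrenal gene of 7 tested was called among the groups, while 2 of 5 chromaffin genes were, Th (adjusted p = 0.0252) and Pnmt (0.0283). In that test 11.2% of all genes were called. Without the 4 libraries set apart, of which Flcn/Tfe3 control 6 holds these genes, 5 of 8 adrenal and 6 of 6 chromaffin genes were called (37.7% of all genes in that fit).

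Skeletal muscle genes, among them the fast myosin light chain Mylpf (60.7 CPM in Flcn control 1), summed to 237 CPM in Flcn control 1, 193 CPM in Flcn/Tfe3 control 2 and 67.1 CPM in Flcn/Tfeb control 1, and to 4.13 to 17.3 CPM in the other 13 libraries. Liver genes ranged from 456.5 CPM to 5854 CPM, with Flcn/Tfe3 control 1 (5854 CPM) and control 7 (3404 CPM) highest. Alb, the gene of serum albumin, had 2057 and 1137 CPM in these 2 libraries and 17.5 to 497 CPM in the other 14. Ttr and Afp, carriers of thyroid hormone and of the fetal blood, stood at 250 to 831 CPM and 83.6 to 802 CPM. Of the fat genes Fabp4, a lipid carrier that endothelium also makes, had 517, 364, 234, 430 and 495 CPM in set C and 124 to 292 CPM in the other groups (adjusted p = 0.0116), while Adipoq, the defining hormone of fat cells, had 9.30 CPM and Lep 0.036 CPM. Urothelial genes were led by Upk3a (50.4 CPM), a plaque protein of the renal pelvis lining. They summed to 136 CPM (156.9 CPM without the 4 libraries set apart) and went from 63.9 to 251 CPM. The 4 libraries set apart were the lowest of their groups for the neutrophil, adipose and urothelium lists.

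**Figure D4:**
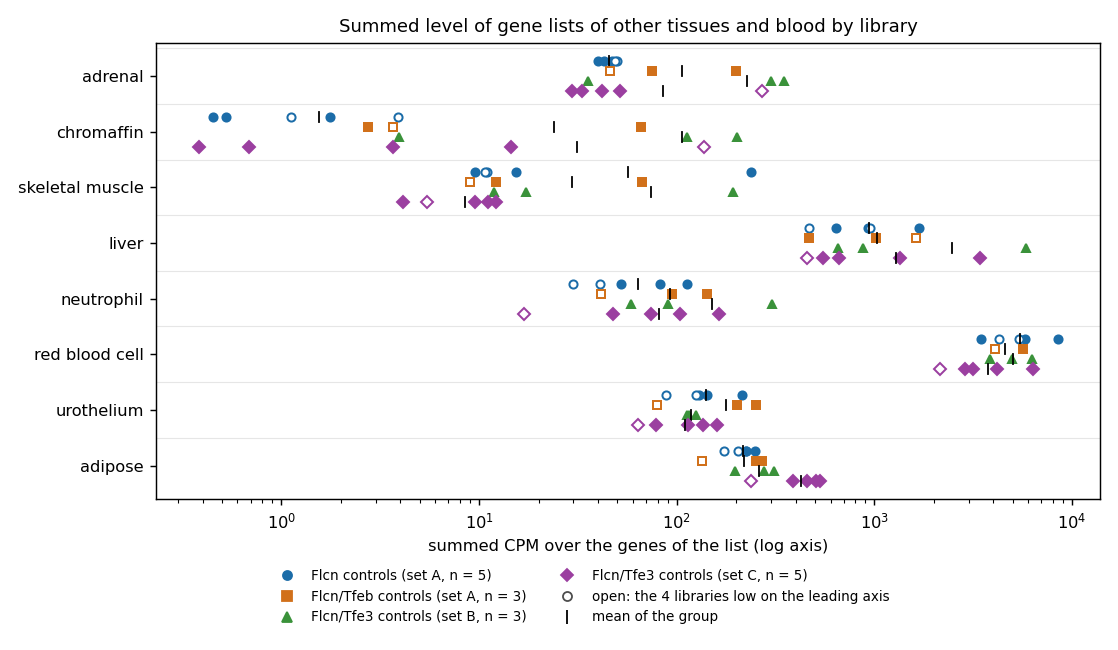
Summed CPM (log axis) of lists of genes of other organs and of blood in each control library, 1 point a library, with the mean of each control group as a black tick. Adrenal and chromaffin sums split into 4 high libraries, from 198.5 to 348 CPM and from 65.6 to 201 CPM, and 12 low ones, skeletal muscle into 3 high and 13 low, and the liver sums run from 456.5 to 5854 CPM.

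Genes of dividing cells were detected in all kidneys. Top2a, a topoisomerase of dividing cells, had 438 CPM (279 to 708), Mki67, the gene of the Ki-67 antigen, 155 CPM (83.6 to 247) and Birc5, of the mitotic spindle, 114 CPM. All 16 cell cycle genes had counts in every library, and 12 of them were highest of their groups in the 4 libraries set apart, so that the sum of 1324 CPM was 1133 CPM without them. Mki67 was the 1 gene called of 16 tested (adjusted p = 0.00474), where 11.2% of all tested genes were. Without the 4 libraries 11 of 16 were called (37.7% of all genes in that fit). For Mki67 set B was lowest, with 101, 83.6 and 102 CPM against 125.5 to 247 CPM in the other 13 libraries. Summed over the list set B was not low, with 1426 ± 112 CPM (SD, n = 3).

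Fetal growth genes were still expressed. H19, the maternally expressed non-coding RNA, had 1486 CPM (612.5 to 3314) and was the highest of 16 imprinted or fetal genes, while Igf2, its paternally expressed neighbour and the main fetal growth factor, had 22.4 CPM. Igf2 was at 56.8, 28.7 and 27.4 CPM in set B and 9.24 to 14.6 CPM in set C, with set A between 11.8 and 28.7 CPM (adjusted p = 0.00697). Ndn, a paternally expressed regulator of growth, was likewise highest in set B, with 87.0, 85.5 and 70.7 CPM against 26.5 to 53.5 CPM in the other 13 libraries (adjusted p = 0.00327). Meg3, a maternally expressed non-coding RNA, ran from 40.5 CPM in Flcn/Tfe3 control 6 to 980 CPM in Flcn/Tfeb control 1 and was not called. Lin28b, which marks earlier embryos, had 0.124 CPM. Of 15 tested genes 6 were called (11.2% of all tested genes were). Without the 4 libraries 10 were called (37.7% of all genes in that fit).

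Hox genes, which set position along the body axis, had a coefficient of variation of 7.06% within groups (9.69% on TMM-scaled CPM). They summed to 1533 CPM (1526 CPM without the 4 libraries) over 39 genes, of which 28 had counts in all 16 libraries. Hoxa10 (156 CPM), Hoxd8 (131 CPM), Hoxd11 (108 CPM) and Hoxa9 (97.3 CPM) were highest. The ends of the clusters were silent or nearly so. Hoxb13 and Hoxc12 had no count, Hoxa13, Hoxc13 and Hoxd13 had 0.137, 0.0392 and 0.257 CPM, and Hoxb1 and Hoxd1 had 0.404 and 0.0398 CPM. Of 29 tested genes 5 were called (11.2% of all tested genes were). Without the 4 libraries 16 of 28 were called (37.7% of all genes in that fit). Hoxb5 is an example, with 50.7 ± 10.8 CPM in Flcn controls, 63.5 ± 3.65 CPM in Flcn/Tfeb controls, 32.5 ± 11.6 CPM in set B and 26.1 ± 4.28 CPM in set C (SD, adjusted p = 0.0129).

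Immediate early genes, which respond within minutes to handling or stress, summed to 413.6 CPM (362 CPM without the 4 libraries, which were the highest of their groups). Fos had a mean of 2.11 CPM and exceeded 3 CPM only in Flcn/Tfe3 control 1 (12.1 CPM), and Fosb and Atf3 had 0.376 and 2.53 CPM. Jund, which is made constantly, had 190 CPM and Egr1 39.6 CPM. Ier2 had 13.4 to 30.7 CPM in set C, 18.1 to 19.4 CPM in set B and 3.71 to 17.7 CPM in set A (adjusted p = 0.00755), so that set B was above set A and set C overlapped with it. Clock genes summed to 213 CPM. Tef (71.1 CPM), Clock (40.4 CPM), an activator of the cycle, and Nr1d2 (29.3 CPM), a repressor, led them, and Arntl and Dbp, whose levels swing most in adult kidneys, had 5.61 and 7.83 CPM. Cry1, another repressor, stood at 10.4 CPM in set C against 22.5 to 24.6 CPM as the means of the other groups (adjusted p = 0.00961).

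Both sexes were present by their genes. Ddx3y, on chromosome Y, had 71.2 to 112 CPM in Flcn controls 1, 2, 3 and 5, Flcn/Tfeb control 1 and Flcn/Tfe3 controls 1, 3 and 8, and no count in the other 8. Those 8 had 175 to 2153 CPM of Xist, the RNA of the inactive X chromosome, and the first 8 had 0 to 10.1 CPM. The 10.1 CPM belonged to Flcn/Tfe3 control 1.

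The genes the study is about were all measured. Lamp1, a lysosomal membrane protein, had 709 CPM (486 to 935) and Cdh16, whose promoter drives the Cre, 270 CPM (177 to 407). Flcn, folliculin, had 12.4 CPM (7.56 to 18.7) and Tfeb, a transcription factor of lysosomal genes, 13.2 CPM (3.09 to 26.3). Tfe3, its close relative on chromosome X, stood at 32.6, 38.3, 31.6, 31.1 and 29.8 CPM in Flcn controls, 40.4, 33.4 and 34.4 CPM in Flcn/Tfeb controls, 24.8, 16.3 and 26.3 CPM in set B and 15.4, 15.7, 18.3, 18.3 and 15.8 CPM in set C. Every control of the Flcn/Tfe3 cross was below every control of set A (adjusted p = 0.00705, called in each fit with a library left out). Of the 5 genes Tfe3 was the 1 called (11.2% of all tested genes were). Whether the lower level goes with the cross or with the deposited set cannot be told apart.

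Between animals of a group a typical gene varied more than counting alone allows. Each animal gave 1 library, so differences between animals and between library preparations cannot be told apart in this spread. Over the 7348 genes with a mean of at least 20 CPM the median SD of log2(CPM + 0.5), pooled over the groups, was 0.319 (10th to 90th percentile 0.196 to 0.517), and the SD that counting gives was 0.133. The pooled SD was above the counting SD for 99.4% of these genes. By group the median was 0.186 in set B, 0.264 in Flcn controls, 0.314 in set C and 0.395 in Flcn/Tfeb controls, where control 3 stood apart. Between the 4 group means the median SD was 0.253. Above 1000 CPM the spread widened again to 0.42 over 89 genes, where the counting SD was 0.0238.

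The 10 genes with the widest spread were sex-linked, adrenal and liver genes and 1 pseudogene. Xist (SD 4.48) and Ddx3y (3.72) came first, then Gm10036 (3.44), Cyp21a1 (2.97), Serpina1c (2.84), Hsd3b1 (2.62), Hpx (2.36), Serpina1e (2.27), Pzp (2.13) and Serpina1d (2.12). Cyp21a1 and Hsd3b1 are steroid enzymes of the adrenal cortex, and Hpx, Pzp and the Serpina1 genes are liver secreted proteins. Gm10036, a processed pseudogene on chromosome 18, had 528 and 393 CPM in Flcn controls 1 and 3 and 576 and 422 CPM in Flcn/Tfe3 controls 2 and 3, and 0 to 2.12 CPM in the other 12 libraries. The steadiest genes with at least 100 CPM were Nrep (SD 0.0737), Spag9, Tmem234, Vasp, Rsrc2, Hsd17b10, Alcam, Tpm1, Ubl5 and Eif1b (0.0991). Nrep, a small protein of growing and regenerating tissue, stayed within 604 to 778 CPM over all 16 kidneys, and Tpm1, a tropomyosin, within 503 to 701 CPM.

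**Figure D5:**
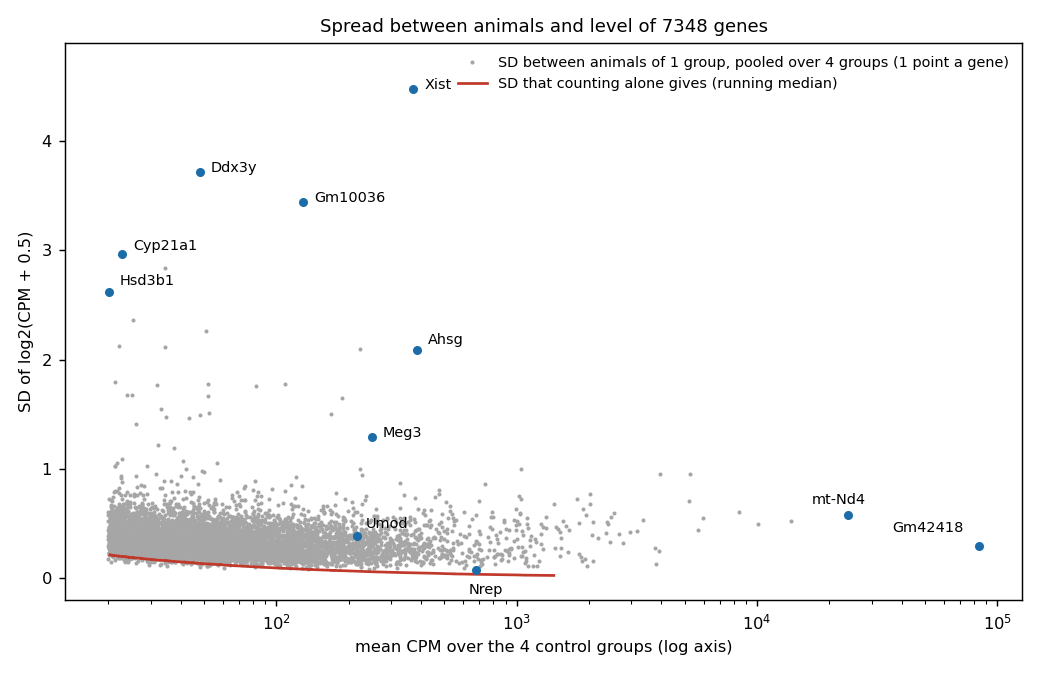
SD of log2(CPM + 0.5) between animals of a control group, pooled over the 4 groups, against mean CPM (log axis) for 7348 genes, 1 grey point a gene, with selected genes named. The red line is the running median of the SD that counting alone gives, and 99.4% of genes lie above their own counting SD, with Xist, Ddx3y, Gm10036 and adrenal and liver genes highest.

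Levels also differed between the control groups themselves. The quasi-likelihood test called 1463 of 13018 genes among the 4 groups and 549 between sets C and B of the same cross, 279 higher and 270 lower in set C. Between Flcn/Tfeb and Flcn controls, which share set A, it called 0 genes (0%), although 1056 had an unadjusted p under 0.05, DESeq2 called 43 and the likelihood ratio test of edgeR 13. Without the 4 libraries set apart the counts were 4883 (37.7%), 2513 (19.4%) and 24 (0.185%) of 12963 genes tested. Over fits that left out 1 library they ran from 758 to 3746 among the groups, from 73 to 1194 for set C against set B and from 0 to 24 for the crosses of set A, with the highest value of each without Flcn/Tfeb control 3. Of 291 tested genes of the lists, with mitochondrial and ribosomal genes aside, 56 were called (19.2%, against 11.2% of all tested genes). Of the 56, 20 were called in each of the 16 fits with a library left out. Those 20 are Cited1, Cry1, Fabp4, Hoxb5, Ier2, Igf2, Itga8, Jag1, Meis1, Meox1, Miox, Mki67, Ndn, Pck1, Pdgfra, Pvalb, Slc12a3, Slc5a2, Synpo and Tfe3.

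Among called genes with at least 20 CPM in 1 group, the widest ranges between group means were those of Gm10036, Tubb3, Gm47283, Pvalb, Hist2h2ac, Mup3, Serpina3k, Six2, Tfap2c and Snhg11. Hist2h2ac, a histone gene, had 5.42, 5.44 and 6.50 CPM in set B and 20.4 to 80.9 CPM in the other 13 libraries (adjusted p = 0.000819). Tubb3, a tubulin of neurons, had 27.4 and 32.6 CPM in Flcn/Tfe3 controls 1 and 2, 2 of the 4 libraries with adrenal genes, and 0 to 4.38 CPM elsewhere, with no count in the other 2 libraries with adrenal genes. Mup3 and Serpina3k, liver genes, were highest in Flcn control 5 (38.5 and 52.4 CPM) and Flcn/Tfeb control 3 (67.2 and 101 CPM). Snhg11, a host gene of small nucleolar RNAs, had 1.98 to 4.40 CPM in set B and 3.65 to 57.8 CPM in the other libraries. Tfap2c, a transcription factor, had 2.52 to 38.1 CPM in set A and 0.365 to 6.40 CPM in sets B and C. Called genes were spread over the groups, with 454 highest in set C, 436 in set B, 293 in Flcn controls and 280 in Flcn/Tfeb controls.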

How the data were processed

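RNA of whole kidneys was made into QuantSeq 3′ mRNA libraries, which read 1 fragment at the 3′ end of a transcript. The authors used STAR for alignment (mm10) and HTSeq for the count of each gene. The deposited counts are raw and leave out reads that align to more than 1 place. The sources name different trimming tools. Tallies of reads left uncounted were deposited for 13 libraries, and shares of reads aligned to more than 1 place were computed from them. The table of set B has in their place a deposited percent of such reads per gene over its libraries, not used here. Counts were divided by the library total (CPM) and averaged over the 4 groups. Symbols and coordinates came from GENCODE M21 (99.9% of 31053 genes matched), and promoters from RefSeq (GRCm38.p6).

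Groups were compared with edgeR 4.0.16 (R 4.3.3), quasi-likelihood F test on TMM-scaled counts, genes filtered by expression, Benjamini-Hochberg adjusted p under 0.05, tested on simulated data. DESeq2 1.42.0, the likelihood ratio test, other scalings and filters, covariates and leaving out libraries were alternatives. Spread was the SD of log2(CPM + 0.5), pooled over groups, for genes with a mean of at least 20 CPM. Named genes were the 20 most abundant, list members, the 10 at each end of the spread and the 10 called genes with the widest range of group means. The libraries are those labelled as controls, and they and the gene lists were set for description with earlier results of these data known. Some genes of these sets are not reported here.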

Additional observations from a re-analysis of the deposited data

Results flagged for a closer look

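Of 126 combinations of a group and a measure, 5 had a library far from the others of its group by Dixon's test, where chance at 1 in 20 gives 6.3. In Flcn/Tfe3 control 6 the summed adrenal genes reached 271 CPM against 29.6 to 51.5 CPM in the other 4 controls of set C, and the summed chromaffin genes 138 CPM against 0.385 to 14.5 CPM. In Flcn control 1 the skeletal muscle genes summed to 237 CPM against 9.5 to 15.4 CPM in the other 4 controls of that cross. The sex-linked genes of Flcn control 4 summed to 497 CPM against 158 to 183 CPM, as this library holds Xist and the other 4 hold Y-linked genes. In Flcn/Tfe3 control 5 mt-Nd2 stood at 21100 CPM against 8410 to 11100 CPM in the rest of set C.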

How the results depend on the processing

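Counts of called genes depended on the test. Among the 4 groups (1463 genes), between sets C and B (549) and between the crosses of set A (0), DESeq2 gave 2487, 1049 and 43, edgeR's likelihood ratio test 2432, 1006 and 13, and an adjusted p under 0.1 gave 2663, 1228 and 4. Without a filter the crosses of set A gave 4. Xist as a covariate gave 780 among the groups and 185 between sets C and B. Adding the mitochondrial share of each library to the model, an alternative chosen after seeing the data, gave 2532 among the groups and 26 for the crosses of set A, and leaving out the 4 libraries set apart, also chosen then, gave 4883, 2513 and 24. The cause of these shifts was not tested.

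Leaving out 1 library gave 758 to 3746 genes among the groups, 73 to 1194 between sets C and B and 0 to 24 between the crosses of set A. The count among the groups moved over 1.5 times without Flcn/Tfeb control 3 (3746) or Flcn/Tfe3 control 1 (758), 2 (890), 4 (768), 7 (858) or 8 (829). Between sets C and B it did so without Flcn/Tfeb control 3 (1194) or any of Flcn/Tfe3 controls 1 to 8 (73, 200, 100, 250, 271, 1033, 244 and 279), and between the crosses of set A without Flcn/Tfeb control 3 (24) or Flcn/Tfe3 control 4 (3).

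With the replicate number as a block 645 genes were called among the groups, 731 between sets C and B (493 higher and 238 lower in set C, against 279 and 270 without it) and 0 between the crosses of set A. Sets B and C share no number, so their contrast in this fit runs through the Flcn controls, which include libraries set apart. Controls of set C whose number occurs in no other group do not enter it. This fit therefore cannot tell whether a call between sets C and B holds, and the test among the groups is limited likewise for set C. Deviations of libraries that share a number gave r from -0.51 to 0.462 over 11 pairs. Those of libraries with different numbers gave -0.592 to 0.633 over 83 pairs. These overlapping ranges cannot tell whether the numbers pair the animals. Of the 20 list genes called in every fit with a library left out, 7 were called with the block (Cited1, Fabp4, Meis1, Mki67, Ndn, Slc12a3 and Slc5a2). The median spread of 0.319 ran from 0.235 without the 4 libraries set apart to 0.327 over its alternatives, with 0.284 without Flcn/Tfeb control 3 and 0.289 on TMM-scaled CPM. A total that leaves out mitochondrial and globin genes raised every list sum, and the Hox sum, from 1533 to 1641 CPM, by more than its spread between replicates. Depth limits genes near 1 CPM, where 3 counts are 0.774 to 1.75 CPM.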

Other observations

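The gene with the smallest adjusted p among the 4 groups, chosen after its values were seen, was Spint2, an inhibitor of membrane serine proteases (adjusted p = 1.51e-06). It had 12.7 to 26.4 CPM in the 8 libraries of set A, 43.4 to 46.4 CPM in set B and 59.3 to 113 CPM in set C, and the 3 sets did not overlap.

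Gm47283, a gene annotated on chromosome Y (90784738 to 90816464, GRCm38), had counts in all 16 libraries, the 8 without a count of Ddx3y among them. Its levels ran from 6.99 to 346 CPM, and the highest was in Flcn/Tfeb control 2, a library without Ddx3y counts (adjusted p = 0.0025 among the groups).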
